A study of Mus musculus with 2 samples.

Results

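The enzymes of the tricarboxylic acid (TCA) cycle were followed here as 9 genes, from citrate synthase to malate dehydrogenase, with succinate dehydrogenase left out. They were looked up by symbol among the 8551 genes of the deposited table, and 8 of the 9 were listed: Cs, Idh3a, Idh3b, Idh3g, Dlst, Suclg1, Fh1 and Mdh2. Ogdh, the E1 subunit of the 2-oxoglutarate dehydrogenase complex, was not among the listed genes and was not analysed here. The genes were measured by digital gene expression tag profiling in the liver of male mice aged 9 weeks, in 1 library of normal liver (wild type, C57BL/6) and 1 of diabetic liver (db/db, labelled type 2 diabetic on the same C57BL/6 background). The db allele disables the leptin receptor in the whole animal, so that db/db mice overeat and become obese as well as diabetic. Each group held 12 mice, and the sources used here do not state whether a library was made from 1 liver or from pooled livers. The methods name more than 1 supplier of the mice without saying which group came from which, so supplier and genotype cannot be told apart. All mice had chow and water freely available, and livers were taken about 3 h after lights on. With 1 library per group, no difference between the libraries had a replicate check, and no p-value for the condition can be given.

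The TCA cycle runs in the mitochondrial matrix. It oxidizes the acetyl group of acetyl-CoA, which comes from pyruvate, fatty acids and some amino acids, to carbon dioxide, and passes the electrons as NADH and FADH2 to the respiratory chain. In the liver its intermediates are also drawn off for glucose and fatty acid synthesis, which links the cycle to fasting and to diabetes. The enzymes are encoded by nuclear genes spread over the genome: the 8 listed genes lie on chromosomes 1, 2, 5, 6, 9, 10, 12 and X.

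In a tag library, the cDNA is cut with DpnII at the sequence GATC and the tag beside the cut nearest to the poly(A) tail is read, so each gene is measured through a short sequence rather than along its length. The tags below were predicted from the longest coding transcript of each listed gene in GENCODE release M21 (GRCm38). They are shown because each level in the next paragraphs may rest mainly on such a tag. Which tags were counted for a gene was not checked. The capitals mark the DpnII site, and a length of 20 bases was assumed, since the tag length is not given in the sources used here.
Cs: GATCttaaatggcgtagtat
Idh3a: GATCccctcccacgtggcca
Idh3b: GATCaaagctggcaaggtac
Idh3g: GATCacctttgacagcatga
Dlst: GATCaccctcaggtgcaggt
Suclg1: GATCtctgctcttcagagtg
Fh1: GATCacctccactgattctt
Mdh2: GATCactccttttgaggaaa
None of these 8 tags occurred in an annotated transcript of another gene. The tags of Idh3b, Idh3g, Suclg1 and Mdh2 lay in coding sequence, and those of Cs, Idh3a, Dlst and Fh1 in the 3′ untranslated region, between 182 bases (Fh1) and 801 bases (Cs) from the transcript end. The coding transcripts annotated for Fh1 ended in 2 different predicted tags and those of Mdh2 in 3, so for these genes the deposited value may sum several tags.

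The steps between the deposited values gave a total of 10278531 clean tags for normal liver and 13508232 for diabetic liver. The deposited unit, called TPM by the authors, is the number of tags of a gene per 1000000 clean tags of its library, and 1 read corresponded to 0.0973 TPM in normal and 0.0740 TPM in diabetic liver. The members were counted with 23 to 1659 reads in normal liver and 38 to 4422 reads in diabetic liver. All 95% intervals given below are exact and cover the error of counting tags only, not the variation between mice. The hepatocyte markers Alb, Ttr and Cps1 were listed, with a summed level of 7188 TPM in normal and 7468 TPM in diabetic liver. This sum was mostly Alb, at 6801 and 6912 TPM, with Ttr at 257 and 239 TPM and Cps1 at 130 and 317 TPM. Apoa2, Fabp1 and Serpina1a were not among the listed genes. The list of Kupffer cell and macrophage markers had 11 symbols, with Emr1 and Adgre1 both naming the same gene. Of these symbols 8 were listed, none at 0 reads, and their summed level was 327 TPM in normal and 194 TPM in diabetic liver. Most of this difference lay in C1qa, at 176 and 50.7 TPM, while Cd5l was at 64.7 and 62.9 TPM. Of the 8 markers, 4 were at least 1.5-fold lower, against 15.3% of all listed genes. At least 1.5-fold higher was 1, C1qb (38.1 to 57.8 TPM), against 34.4%. The 7 sinusoidal endothelial markers summed to 112 and 103 TPM. Of them, 2 (Kdr and Lyve1) were at least 1.5-fold higher and 1 (Clec4g) lower, against 34.4% and 15.3% of all listed genes. The 5 listed stellate cell markers summed to 107 and 149 TPM, with 1 (Col1a1) at least 1.5-fold higher and 1 (Reln) lower, against the same shares. The 3 listed cholangiocyte markers summed to 61.5 and 107 TPM. The cholangiocyte sum was mostly Spp1, at 57.2 and 103 TPM, with Epcam at 3.21 and 3.04 TPM and Krt7 at 1.07 and 1.18 TPM. The T and NK, B and erythroid cell lists had 1, 2 and 1 listed genes, with sums of 1.95 and 1.55 TPM, 5.35 and 3.77 TPM, and 51.9 and 44.2 TPM in the same order. The part of these cell types in the values of the TCA cycle genes was not tested. In such bulk samples fewer cells of a type and less RNA per cell cannot be told apart.

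All 8 listed TCA cycle genes had a higher level in diabetic liver than in normal liver. At least 1.5-fold higher were 6 of the 8 (Mdh2, Fh1, Dlst, Idh3b, Idh3g and Suclg1), and 0 of 8 were at least 1.5-fold lower. Over all 8551 listed genes 34.4% were at least 1.5-fold higher and 15.3% at least 1.5-fold lower. The median log2 ratio, diabetic over normal, was 0.88 for the 8 genes, that is 1.84-fold, against 0.25 for all listed genes. Added together, the 8 genes took 634 TPM in normal liver and 1221 TPM in diabetic liver. The 2 genes that did not reach 1.5-fold were Cs and Idh3a. At least 2-fold higher were Fh1 and Mdh2, 2 of the 8, against 18.6% of all listed genes. When an FDR under 0.001 in an exact binomial test on the reads was also required, the 6 genes were still called higher, against 22.9% of all genes, and 0 of 8 lower, against 8.19%; this test compares 2 libraries and not conditions.

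The ratio depends on what the libraries are scaled to. The median of all listed genes lay above 0, and 4 other scalings (sum of listed genes, upper quartile, median ratio and TMM, the trimmed mean of M values) took 0.25 to 0.31 off every log2 ratio. Under TMM scaling 5 of the 8 genes remained at least 1.5-fold higher, against 24.1% of all genes, and Suclg1 was then 1.35-fold higher. Under median-ratio scaling there were 4 of 8, against 21.9% of all genes, as Idh3g came to 1.48-fold. All 8 log2 ratios stayed above 0 under each of the 4 scalings, but for Idh3a by as little as 0.02.

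**Figure D1:**
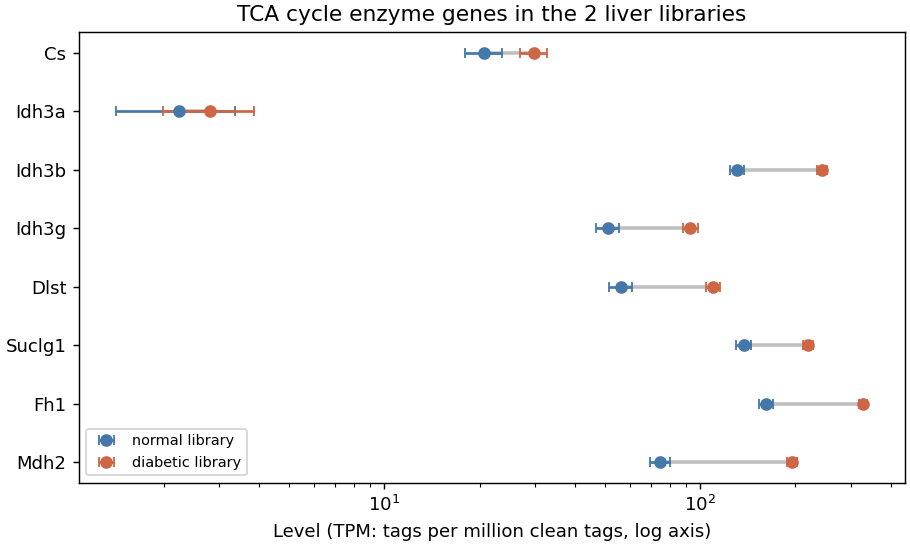
Level of each listed TCA cycle gene in TPM (tags per 1000000 clean tags, log axis) in normal liver (blue) and diabetic liver (orange), with 95% Poisson intervals for counting error and 1 library per group. The 2 intervals overlap only for Idh3a, which had 23 and 38 reads.

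Citrate synthase (Cs, Entrez 12974) condenses acetyl-CoA with oxaloacetate and opens the cycle. It was at 20.6 TPM in normal liver and at 29.8 TPM in diabetic liver, with 212 and 402 reads. The diabetic level was 1.44-fold higher (log2 ratio 0.53, 95% interval 0.29 to 0.78), just under 1.5-fold, and 1.21-fold higher under TMM scaling. Of the genes that were at least 1.5-fold higher, Suclg1 lay nearest to the threshold on the other side, at 1.60-fold. A close paralog, Csl (citrate synthase like, Entrez 71832), was at 27.1 TPM and 30.6 TPM (log2 ratio 0.17, 95% interval -0.05 to 0.40). Of the 7 predicted tag positions of Cs and the 8 of Csl, 3 tags were identical, and the last tag of Csl, GATCccatgttcaagctggt, also occurs in the Cs transcript. The last tag of Cs differed from each Csl tag by at least 10 bases. How the authors counted tags common to several genes is not given in the sources used here, so the values of Cs and Csl may not be fully separate.

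NAD-dependent isocitrate dehydrogenase, a regulated step of the cycle, is built from the catalytic alpha subunit Idh3a and the subunits Idh3b and Idh3g. Idh3b (Entrez 170718) was at 131 TPM in normal and 243 TPM in diabetic liver, 1.86-fold higher (log2 ratio 0.90, 95% interval 0.80 to 0.99). Idh3g (Entrez 15929) was at 50.9 TPM and 93.1 TPM, 1.83-fold higher (log2 ratio 0.87, 95% interval 0.72 to 1.02). The change of Idh3b relative to Idh3g was 1.02-fold (95% interval, 0.90 to 1.15), so a difference between the 2 subunits was not detectable at this depth. Idh3a (Entrez 67834) was counted with only 23 reads in normal and 38 reads in diabetic liver, at 2.24 and 2.81 TPM. Its log2 ratio of 0.33 had a 95% interval from -0.45 to 1.14, which holds both no difference and the ratios of its partner subunits.

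The 2-oxoglutarate dehydrogenase complex makes succinyl-CoA, and its E2 core, dihydrolipoamide S-succinyltransferase, is encoded by Dlst (Entrez 78920). Dlst was at 55.9 TPM with 575 reads in normal liver and at 110.0 TPM with 1486 reads in diabetic liver. The diabetic level was 1.97-fold higher (log2 ratio 0.98, 95% interval 0.84 to 1.12), and 1.65-fold higher under TMM scaling. Dld, the E3 subunit that this complex shares with pyruvate dehydrogenase, went from 34.3 to 65.4 TPM, 1.90-fold higher. Relative to Dld, Dlst changed by 1.03-fold (95% interval, 0.88 to 1.21).

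Succinyl-CoA synthetase converts succinyl-CoA to succinate and forms ATP or GTP, depending on which beta subunit pairs with the common alpha subunit. The alpha subunit Suclg1 (Entrez 56451) was at 137 TPM in normal and 220 TPM in diabetic liver, 1.60-fold higher (log2 ratio 0.68, 95% interval 0.59 to 0.77). The ADP-forming and GDP-forming beta subunits, which are encoded by Sucla2 and Suclg2, were both 1.25-fold higher, at 51.1 and 64.0 TPM for Sucla2 and at 160 and 200 TPM for Suclg2. The alpha subunit thus changed 1.28-fold more than Sucla2 (95% interval, 1.13 to 1.45) and 1.28-fold more than Suclg2 (95% interval, 1.17 to 1.40), a difference larger than the counting error. Under median-ratio scaling both beta subunits came to a log2 ratio of 0.02, while Suclg1 stayed at 0.37.

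Fumarase (Fh1, Entrez 14194) hydrates fumarate to malate. It was at 161 TPM with 1659 reads in normal liver and at 327 TPM with 4422 reads in diabetic liver. This was 2.03-fold higher (95% interval, 1.92 to 2.15, log2 ratio 1.02), and its lowest value under the 4 other scalings was 1.64-fold. Of the 8551 genes, 1533 had a higher log2 ratio than Fh1.

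Mitochondrial malate dehydrogenase (Mdh2, Entrez 17448) regenerates oxaloacetate and also serves the malate-aspartate shuttle. Its level was 74.7 TPM with 768 reads in normal liver and 195 TPM with 2639 reads in diabetic liver. At 2.61-fold (95% interval, 2.41 to 2.84, log2 ratio 1.39) it had the highest ratio of the 8 genes, and 849 of all 8551 genes had a higher one. Under each of the 4 other scalings it was still at least 2-fold higher, with 2.12-fold as the lowest value. The cytosolic malate dehydrogenase Mdh1 was at 8.17 TPM and 9.92 TPM (log2 ratio 0.28, 95% interval -0.12 to 0.69). Relative to Mdh1, Mdh2 changed by 2.15-fold (95% interval, 1.60 to 2.89).

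**Figure D2:**
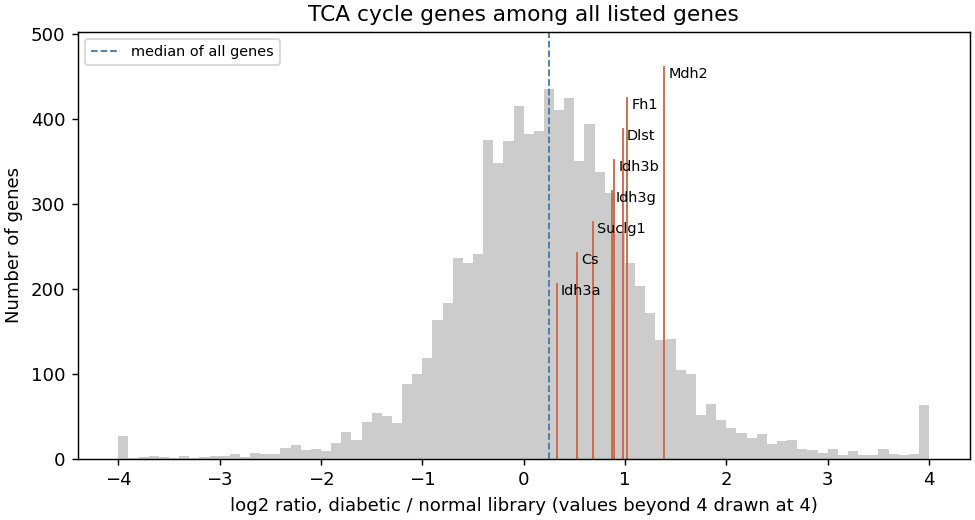
Number of genes by log2 ratio, diabetic over normal liver, in bins of 0.1 for all 8551 listed genes (grey), with the 8 TCA cycle genes as orange lines whose heights carry no value and the median of all genes, 0.25, as a dashed line. All 8 lines lie to the right of the dashed line, from 0.33 for Idh3a to 1.39 for Mdh2.

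To compare the TCA cycle genes with each other without any scaling between the libraries, the ratio of a pair of genes was taken in each library and the 2 ratios were divided. Of the 28 pairs, 16 had a 95% interval that left out 1, and 12 had one that held 1. Mdh2 changed more than each of the 7 other genes, from 1.29-fold more than Fh1 (95% interval, 1.17 to 1.42) to 2.08-fold more than Idh3a (95% interval, 1.17 to 3.61). Fh1, Dlst, Idh3b and Idh3g lay close together: the largest change among them was Fh1 relative to Idh3g, 1.11-fold with an interval of 0.98 to 1.25, while Fh1 relative to Idh3b, 1.09-fold, was the 1 pair among them whose interval left out 1, though barely (1.00 to 1.19). Each of the 4 changed more than Suclg1, from 1.14-fold for Idh3g (95% interval, 1.01 to 1.29) to 1.27-fold for Fh1 (95% interval, 1.16 to 1.38). Suclg1 relative to Cs changed by 1.11-fold (95% interval, 0.92 to 1.33). All 4 genes of the middle group changed more than Cs, between 1.27-fold for Idh3g (95% interval, 1.04 to 1.55) and 1.41-fold for Fh1 (95% interval, 1.17 to 1.68). Of the 7 pairs with Idh3a, 6 held 1. The order of the ratios was therefore Mdh2, then Fh1, Dlst, Idh3b and Idh3g, then Suclg1 and Cs, with Idh3a too thinly counted to be placed. These intervals describe 2 libraries, and other mice were not measured.

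**Figure D3:**
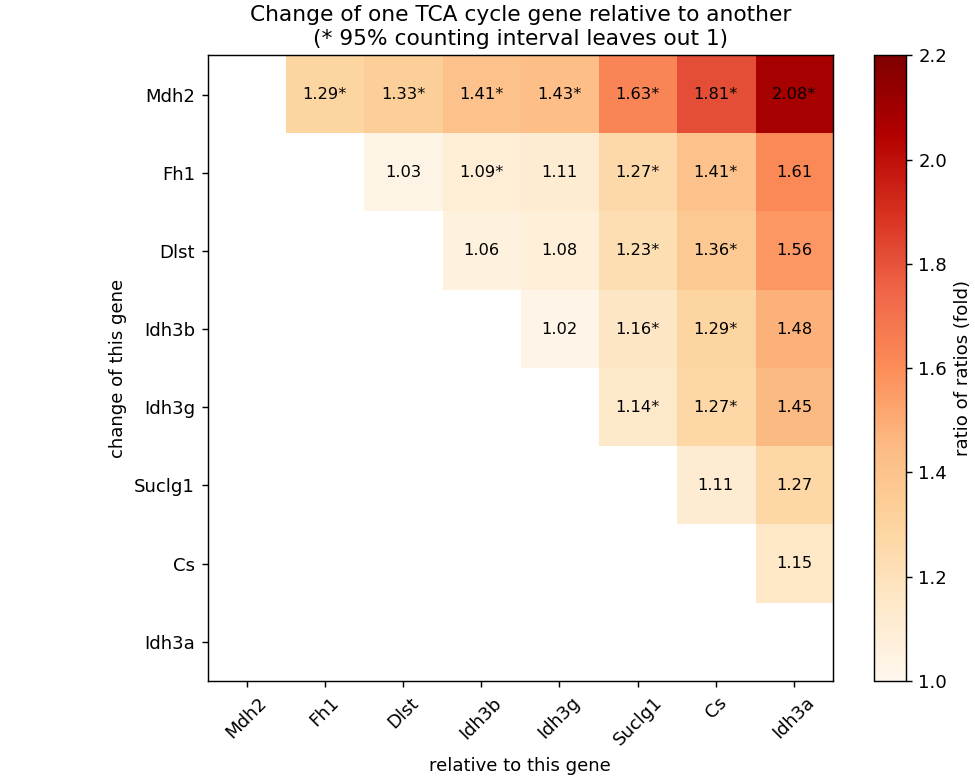
Change of the gene in each row relative to the gene in each column, as the ratio of the 2 genes in diabetic liver divided by that in normal liver (fold, colour scale), with an asterisk where the 95% counting interval leaves out 1. The top row, Mdh2, has an asterisk in all 7 cells, from 1.29 to 2.08, whereas the cells among Fh1, Dlst, Idh3b and Idh3g lie between 1.02 and 1.11.

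The other enzymes and subunits of the cycle did not all show the same change. The NADP-dependent mitochondrial isocitrate dehydrogenase Idh2, which catalyses the same carbon step as Idh3 but makes NADPH, was at 43.3 and 197 TPM, 4.56-fold higher. Idh2 changed 2.45-fold more than Idh3b (95% interval, 2.17 to 2.76). The cytosolic NADP-dependent enzyme Idh1 was 3.47-fold higher and changed 1.87-fold more than Idh3b (95% interval, 1.71 to 2.04). Of the succinate dehydrogenase subunits, Sdha went from 188 to 415 TPM, 2.21-fold higher, while Sdhc and Sdhd were 1.45-fold and 1.47-fold higher and Sdhb was not among the listed genes.

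**Figure D4:**
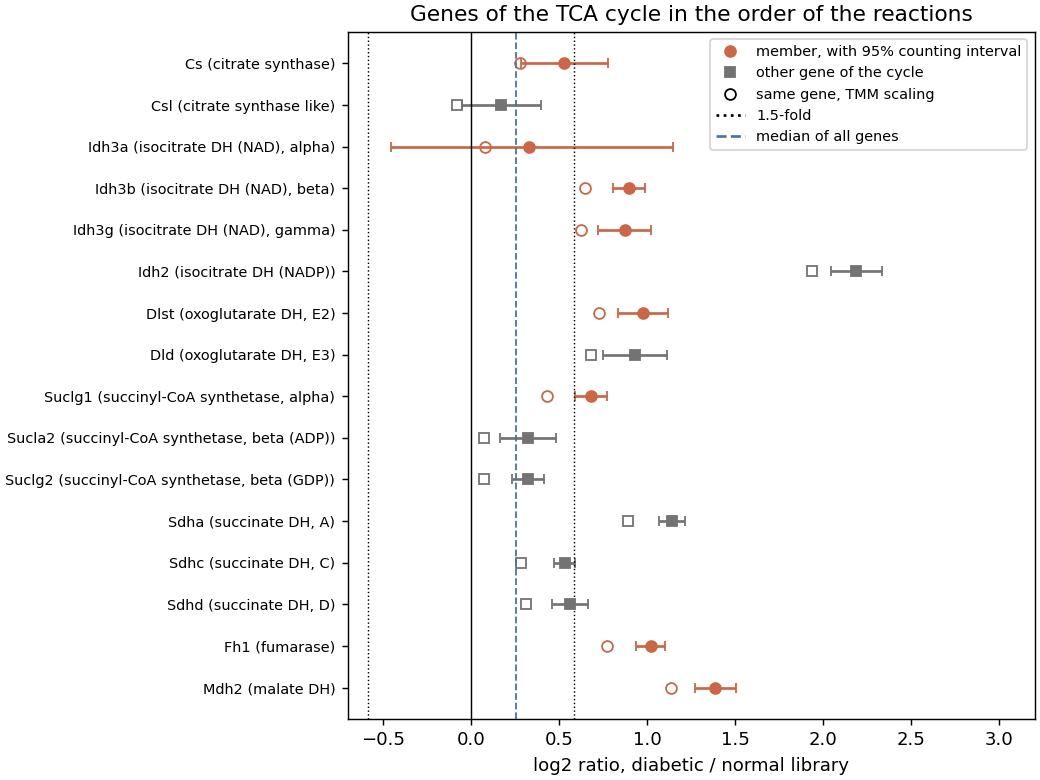
Log2 ratio, diabetic over normal liver, of the genes of the cycle in reaction order, with the 8 TCA cycle genes followed here as orange circles, other genes of the cycle named in the text as grey squares, 95% counting intervals as bars, and open symbols for the same gene under TMM scaling. Dotted lines mark 1.5-fold and the dashed line the median of all genes; Idh2 lies farthest to the right at 2.19, and Csl, at 0.17, has the lowest filled symbol shown.

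A wider list around the cycle held 36 listed genes. They were the other enzymes and subunits of the cycle, Csl, succinate dehydrogenase genes, cytosolic counterparts, lipoic acid attachment genes, and entry, exit and transport steps. Of the 36, 18 were at least 1.5-fold higher and 1 at least 1.5-fold lower, against 34.4% and 15.3% of all listed genes. With an FDR under 0.001 also required, 15 were called higher, against 22.9% of all genes, and 1 lower, against 8.19%. The median log2 ratio of the 36 genes was 0.63. Of 11 genes of the pyruvate dehydrogenase complex and its control, which gate the entry of pyruvate, 6 were listed. At least 1.5-fold higher were 5 of these 6, against 34.4% of all listed genes. With an FDR under 0.001 also required, 3 remained, against 22.9% of all genes. These 3 were the E1 subunit Pdha1, 1.91-fold higher, and the inhibitory kinases Pdk1 and Pdk2, 2.38-fold and 1.82-fold higher. Dlat and Pdk4, with 23 and 26 reads in normal liver, did not pass. Of 6 listed genes that feed or drain the cycle, 4 were at least 1.5-fold higher, against 34.4% of all listed genes. The alanine aminotransferase Gpt2 was 4.63-fold higher, from 57.8 to 268 TPM, and pyruvate carboxylase, Pcx, which makes oxaloacetate, had a log2 ratio of -0.15 (95% interval, -0.34 to 0.05).

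Of 7 listed carriers that move cycle intermediates or pyruvate across the inner membrane, 4 were at least 1.5-fold higher, against 34.4% of all listed genes. The oxodicarboxylate carrier Slc25a21 was 4.10-fold higher, from 48 to 259 reads. The citrate carrier Slc25a1, which exports citrate for fatty acid synthesis, was the 1 gene that was at least 1.5-fold lower, from 172 to 96.2 TPM (log2 ratio -0.84, 95% interval -0.94 to -0.73). Acly, which cleaves exported citrate in the cytosol, was at 225 and 172 TPM. Lias, which makes the lipoyl group that Dlst carries, was at 65.4 TPM in normal and 45.2 TPM in diabetic liver (log2 ratio -0.53, 95% interval -0.69 to -0.37), against 0.98 for Dlst. Under TMM scaling 17 of the 36 genes were at least 1.5-fold higher and 6 at least 1.5-fold lower, against 24.1% and 23.5% of all genes. The succinate dehydrogenase assembly factor Sdhaf2 had a log2 ratio of 0.21, with an interval of -0.03 to 0.45.

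The respiratory chain, which takes up the electrons from the cycle, is given beside it as the nearest set of mitochondrial genes. The set picked held 44 listed subunit genes of complexes I, III, IV and V and was not complete. It left out Cox4i1 of complex IV (log2 ratio 1.32) and Cyc1 of complex III (log2 ratio -0.31), which were listed. Of the 44 genes, 28 were at least 1.5-fold higher and 3 at least 1.5-fold lower. Their median log2 ratio was 0.72, against 0.88 for the TCA cycle genes. Among the genes picked, the median was 0.79 over 22 of complex I and 0.65 over 6 of complex III. It was 0.50 over 6 of complex IV and 0.73 over 10 of complex V. These medians describe the genes picked and not the whole complexes. The range over the 44 genes was -2.24 to 3.39, and the 8 TCA cycle genes lay between 0.33 and 1.39. The 44 genes included thinly counted ones, since 27 were at least 1.5-fold higher when a mean of at least 5 TPM was required. With an FDR under 0.001 also required, 28 were called higher and 1 lower, against 22.9% and 8.19% of all genes. The 2 ranges come from sets of unlike size and depth and are not compared. Under TMM scaling 18 of the 44 genes and 5 of the 8 TCA cycle genes were at least 1.5-fold higher, against 24.1% of all genes. No test of a difference between these sets was made.

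The promoters were read for what the genes share in sequence. The RefSeq promoter table (GRCm38.p6) held 7 of the 8 genes, and not Idh3a, and the 250 bases before the start were searched on both strands. GC boxes (GGGCGG) were present in 4 of the 7 promoters (Cs, Dlst, Fh1 and Mdh2) and in 59.2% of 6623 promoters of listed genes. The letters CCAAT were present in 3 of 7 and in 36.4%. The NRF1 core GCGCATGC and the ERR core AAGGTCA were found in 0 of 7, and in 4.61% and 3.02% of the promoters of listed genes. The ETS letters CCGGAAG and the YY1 core AAGATGG each occurred in 1 of 7, in Idh3g, and in 14.4% and 4.54%. The cAMP response element TGACGTCA occurred in 1 of 7, in Mdh2, and in 2.57%. No motif was thus common to all 7.

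The promoter of Mdh2 is shown because Mdh2 had the highest ratio, and that of Idh3g because it held matches to the ETS and YY1 letters. The Mdh2 window is chr5:135778399-135778648 (plus strand) and the Idh3g window chrX:73786898-73787147 (minus strand, printed 5′ to 3′ of the gene). Capitals mark TGACGTCA and TCTCGCGAGA in Mdh2, and AAGATGG and CCGGAAG in Idh3g, and none of the marked letters overlap.
Mdh2: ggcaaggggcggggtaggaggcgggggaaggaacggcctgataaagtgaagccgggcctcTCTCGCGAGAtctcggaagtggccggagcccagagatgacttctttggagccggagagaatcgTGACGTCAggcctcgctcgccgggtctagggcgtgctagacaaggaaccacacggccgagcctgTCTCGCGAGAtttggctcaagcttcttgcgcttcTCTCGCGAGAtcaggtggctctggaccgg
Idh3g: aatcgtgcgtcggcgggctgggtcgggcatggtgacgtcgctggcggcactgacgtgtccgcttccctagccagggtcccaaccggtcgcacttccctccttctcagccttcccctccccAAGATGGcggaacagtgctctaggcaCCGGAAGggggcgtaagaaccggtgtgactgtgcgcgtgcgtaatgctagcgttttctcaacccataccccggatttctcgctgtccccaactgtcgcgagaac
TCTCGCGAGA equals its own reverse complement and was searched after the Mdh2 sequence had been seen. It was picked as the longest such run with at least 3 copies in a promoter of these genes, so that copy number was fixed by the choice. Its 3 copies in the Mdh2 window began 190, 63 and 29 bases before the start. At least 1 copy was present in 0.407% of 27025 promoters and in 51 of the 6623 promoters of listed genes, and 2 of the 27025 promoters held 3 copies or more. The other 6 TCA cycle promoters held none. The letters are a description of the sequence, and whether any factor binds there was not measured. The CpG ratio, observed over expected from the base composition, had a median of 0.878 in the 7 promoters and 0.734 in the promoters of listed genes. The GC content went the other way, with a median of 55.2% in the 7 promoters and 59.6% in those of listed genes.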

How the data were processed

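The authors made tag libraries from poly(A) RNA with DpnII and read them on an Illumina 1G instrument. After removal of adaptors, clean tags were compared with RefSeq. The submitters' processing notes name the build mm9; the aligner and its version are not given in the sources used here. The deposited values, called TPM, are RPM values (tags of a gene per 1000000 clean tags of the library), with 0.01 for no tag and genes under a mean of 1 TPM left out. The number of further sample columns left unused was 0.

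Reads were recovered from the steps of the values: 8513 of 8513 values of the normal and 8536 of 8537 of the diabetic library were within 0.1 of a whole read. Fold changes used the deposited values. Ratios have 95% Clopper-Pearson intervals, levels exact Poisson intervals, and pairs of genes exact conditional odds ratios. With 1 library per group no test of the condition was made. An exact binomial test (two-sided, Benjamini-Hochberg adjusted over 8551 genes) was run on the reads and compares the 2 libraries only. With a fold of at least 1.5 and an FDR under 0.001 it called 1955 genes higher and 700 lower. Alternatives were 4 scalings (TMM trimmed 30% of log ratios and 5% of abundances at each end; the median ratio used genes averaging 10 TPM or more), a fold of 2, a minimum mean of 5 TPM, 0.1 or 1 TPM as pseudocount, and this test. All TCA cycle genes were named. In each wider list the genes named were those with the highest and lowest ratio at a mean of 10 TPM or more. The other cycle subunits and Csl were also named. Mdh1, Sdhc, Sdhd, Pdha1, Dlat, Pdk4, Cox4i1 and Cyc1 were chosen after their values were seen. Idh1 fell under the rule. A gene that the rule also named is not reported here. The members and lists were chosen with earlier results of these data known, and the lists were written by hand. The computation was tested on simulated reads. The software was matplotlib 3.10.9, pandas 2.3.3, scipy 1.17.1 and numpy 2.4.6 under Python 3.11.15.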

Additional observations from a re-analysis of the deposited data

How the results depend on the processing

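All 55 log2 ratios of the TCA cycle genes under the 4 scalings, the 2 pseudocounts and the minimum mean of 5 TPM, which leaves out Idh3a, were above 0. Of these, 28 lay outside the counting interval of the deposited ratio, all under the 4 scalings, which shift every gene alike. The median log2 ratio of the TCA cycle genes was 0.62 when scaled by the listed total, 0.63 under TMM, 0.58 under median ratio and 0.61 under upper quartile. The wider list then had 6 of 36 genes at least 1.5-fold lower under each scaling, against 23.5% of all genes under TMM. The oxidative phosphorylation genes at least 1.5-fold higher numbered 15, 18, 13 and 14 of 44 in the same order. The share of all genes at least 1.5-fold higher was 24.1% under TMM and 21.9% under median ratio. With a fold of 2 in place of 1.5, 2 TCA cycle genes (Fh1 and Mdh2) were called higher, against 18.6% of all genes, as were 11 genes of the wider list, with 0 lower, and 10 oxidative phosphorylation genes. With the exact test added, the same 6 TCA cycle genes were called higher, against 22.9% of all genes. Pairs of genes do not depend on the scaling, and 15 of their intervals left out 1 without Idh3a. No paired analysis was possible because each group holds 1 library. Depth limits Idh3a most, and the number of libraries limits every result.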
